A study of Homo sapiens with 23 samples.

Results

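The effect of depleting STAT3 on the 24 h response to Src was measured, gene by gene, as an interaction. It is the TAM effect in siSTAT3 cells at 24 h minus the TAM effect in siNEG cells at 24 h, both on the log2 scale. A negative value means that TAM raised the gene less, or lowered it more, when STAT3 was depleted, and a positive value means the opposite. The term rests on 11 of the 23 arrays of the series, and it was computed for 19775 genes on 54675 probe sets. All arrays came from MCF10A-ER-Src, a human breast epithelial line that is not transformed by itself and carries v-Src joined to the hormone-binding part of the estrogen receptor. Adding 4-hydroxytamoxifen (TAM) at 1 µM switches the kinase on, and ethanol (EtOH) was its vehicle. The groups were siSTAT3 TAM (2 arrays, replicates 2 and 3), siSTAT3 EtOH (3 arrays), siNEG TAM (3 arrays) and siNEG EtOH (3 arrays), where siSTAT3 is a pool of siRNAs against STAT3 and siNEG a pool without a target, each at 25 nM. Every group was grown with the same serum, EGF, insulin, hydrocortisone and cholera toxin. Replicate 1 of siSTAT3 TAM was not analysed here. The methods call the 3 replicates biological, but neither they nor the labels say that these were separate cultures, so the p-values measure the spread between these arrays, which may be partly technical.

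STAT3 is a transcription factor that sits inactive in the cytoplasm until a tyrosine kinase phosphorylates it, after which it pairs up, enters the nucleus and binds short palindromic DNA sequences. Src can phosphorylate it directly, and so can the JAK kinases below the receptors for interleukin 6, oncostatin M and leukemia inhibitory factor. In epithelial cells its best known products are acute-phase proteins, the feedback inhibitor SOCS3, and genes of wound repair, inflammation and survival.

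STAT3 itself was low in both depleted groups. Its signal was 441 and 359 units on the siSTAT3 TAM arrays and 495, 375 and 326 units on the siSTAT3 EtOH arrays, against 6753, 5955 and 5650 units on the siNEG TAM arrays and 4303, 4104 and 3968 units on the siNEG EtOH arrays. No depleted array overlapped a siNEG array, and the siSTAT3 to siNEG difference was -3.94 on the log2 scale with TAM (adjusted p = 2.2e-11) and -3.39 with EtOH (adjusted p = 1.02e-09). STAT3 was depleted and not removed, so some STAT3 RNA was left in these cells. TAM raised STAT3 RNA by 0.57 in siNEG cells (adjusted p = 0.00973), and the interaction on STAT3 was -0.54 (SE 0.20, adjusted p = 0.191), which was not called. Averaged over its 4 probe sets, it was -0.60 and was called (adjusted p = 0.0305). The signal is the MAS5 value of a probe set, in arbitrary linear units, and each gene is given by its brightest probe set. The arrays at 24 h had median signals between 75.5 and 84.7 units. A signal of 100 units or more was reached by 45.0% to 46.9% of their probe sets. The 3′ to 5′ signal ratio of the ACTB control was 1.21 on both siSTAT3 TAM arrays and 1.30 to 1.35 on the other 9 arrays at 24 h. Replicate 3 of siSTAT3 TAM also had the highest bioC and creX control signals, at 2469 and 26704 units. The part of these differences in the results was not tested.

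At 24 h the interaction passed an adjusted p of 0.05 in 1169 genes, which is 5.91% of the genes tested. It was negative in 493 of them (2.49%) and positive in 676 (3.42%). Among the 11492 genes with a mean of 100 units or more in at least 1 group at 24 h, 1126 were called. These counts are the background for the list counts below, also where a list is given without them. The lists were written with earlier results of these data known, so their counts are not independent of those results. The median over all genes was 0.03, and the median size among called genes was 0.91. Sizes above 1 were reached by 249 negative and 259 positive genes, and sizes above 2 by 89 and 54. Without replicate 3 of siSTAT3 TAM, 354 negative and 406 positive genes were called. Each value is an average over all cells of a culture, so fewer cells of a type and less RNA per cell cannot be told apart.

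**Figure D1:**
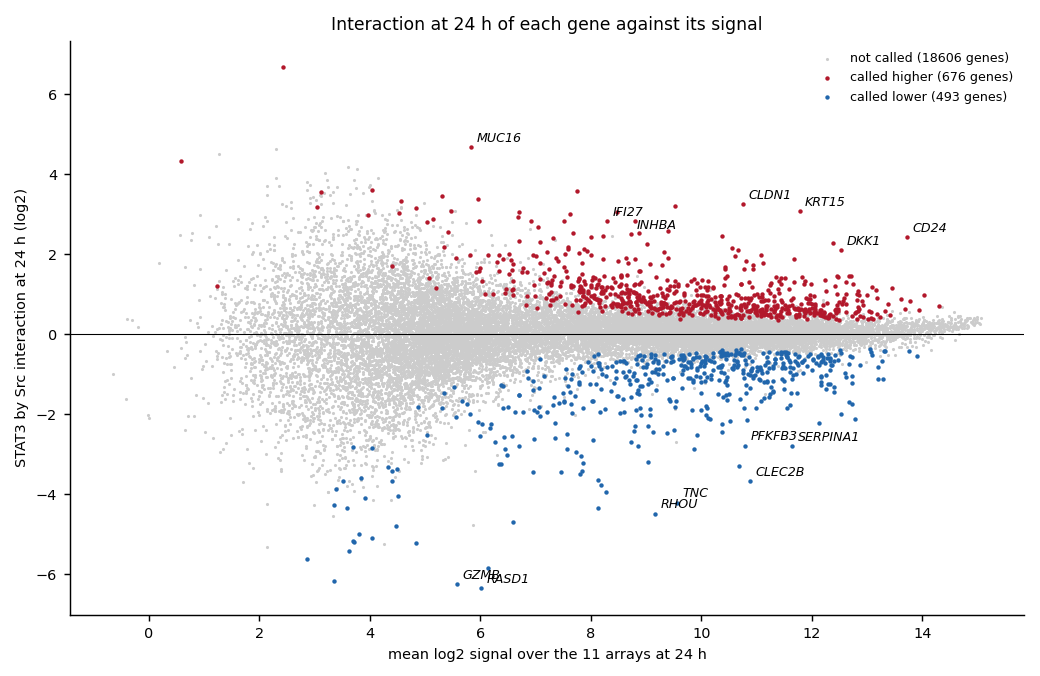
Interaction at 24 h of each of 19775 genes (vertical axis, log2) against its mean log2 signal over the 11 arrays at 24 h (horizontal axis). Blue points are the 493 genes called lower, red points the 676 called higher and grey points the rest, and the spread of the grey points widens at low signals.

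For each gene, the group said to stand apart is the 1 whose mean lay farthest from the mean of the other 3. Some group is always farthest, so this does not show that the other 3 were alike. In most called genes it was siNEG TAM. Among the negative interactions the siNEG TAM mean lay farthest out, on the high side, in 434 of 493 genes (88.0%). Among the positive ones it lay farthest out, on the low side, in 500 of 676 (74.0%), while siSTAT3 TAM stood above the rest in 148 (21.9%). Over all genes siNEG TAM stood apart on the high side in 14.7% and on the low side in 22.4%. The calls rest on the same group means, so the sign of a call limits the side on which each group can stand. The shares over all genes have no such limit. Counted by effect, TAM passed the test as a rise in siNEG cells and was not called in siSTAT3 cells in 391 of the 493 negative genes. It passed in both as a rise in 57. Of the 676 positive genes, 489 fell with TAM in siNEG cells and were not called in siSTAT3 cells. A further 74 rose with TAM in siSTAT3 cells and were not called in siNEG cells, and 43 rose in siSTAT3 cells and fell in siNEG cells. With EtOH alone, siSTAT3 and siNEG cells did not differ by the test in 397 of the negative and 533 of the positive genes. These effects share arrays with the interaction that chose the genes, so such counts are partly set by the choice. They were not counted over all genes. The TAM effect also rests on 2 TAM arrays in siSTAT3 cells and on 3 in siNEG cells.

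The largest negative interactions belonged to genes that TAM raised in siNEG cells. The genes were chosen by the interaction, which uses the same arrays as the TAM effects. Among the 20 largest, with sizes of 3.44 to 6.36, the TAM effect was called in siNEG cells in all 20 and in siSTAT3 cells in 3. In 10 of them siNEG TAM was the only group at 100 units or more, and for those the size depends on signals near the dim end of the array. RASD1, a Ras-like small G protein induced by dexamethasone, gave 26.4 and 30.5 units with siSTAT3 TAM and 27.6, 16.9 and 15.2 units with siSTAT3 EtOH, against 1571, 1545 and 2101 units with siNEG TAM and 23, 11.5 and 10.8 units with siNEG EtOH. GZMB, the granule protease of killer lymphocytes, gave 20.1 and 46.9 units with siSTAT3 TAM and 25.5, 5.86 and 11.9 units with siSTAT3 EtOH, against 1541, 1493 and 1522 units with siNEG TAM and 7.08, 6.74 and 10.2 units with siNEG EtOH. Both genes were bright on the 3 siNEG TAM arrays alone, with interactions of -6.36 (SE 0.58, adjusted p = 3.21e-06) and -6.25 (SE 1.03, adjusted p = 0.00122).

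RHOU had more than 100 units on every array at 24 h. It encodes an atypical small GTPase that acts on the cytoskeleton and on focal adhesions. Its signal was 277 and 220 units with siSTAT3 TAM and 215, 227 and 206 units with siSTAT3 EtOH, against 6724, 5793 and 6227 units with siNEG TAM and 255, 222 and 252 units with siNEG EtOH. The TAM effect was 0.20 on the log2 scale in siSTAT3 cells (adjusted p = 0.771) and 4.69 in siNEG cells (adjusted p = 9.14e-12), and the interaction was -4.49 (SE 0.24, adjusted p = 2.03e-08). In the list of G protein regulators and small GTPases, 5 of 18 measured genes were called negative and 3 positive. Over all genes the shares were 2.49% and 3.42%. RGS16, which speeds up GTP hydrolysis by G alpha proteins, had an interaction of -2.59, RGS2 one of -1.13, and RHOF, another small GTPase, one of 1.72. RGS16 lost its call when its probe sets were averaged (-1.36, adjusted p = 0.0607). That average includes a probe set that peaked at 44.3 units, while the 2 at 100 units had -2.60 and -2.59.

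**Figure D2:**
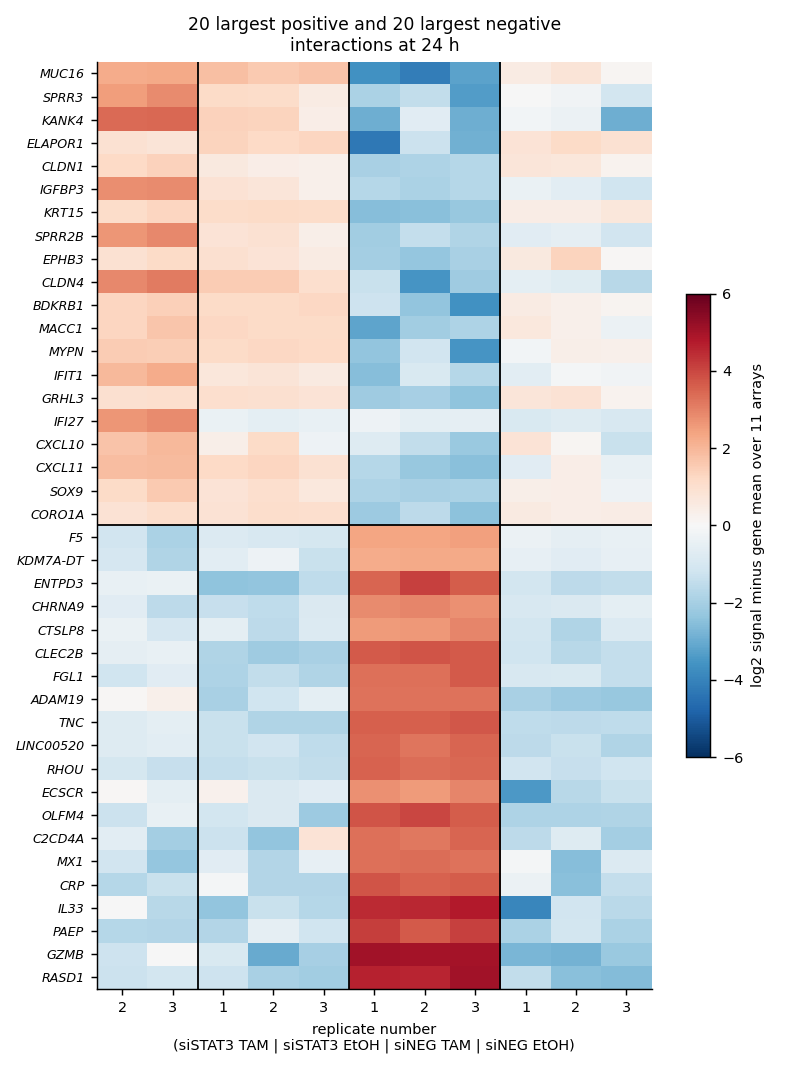
Log2 signal minus the gene's mean over the 11 arrays (color scale) for the 20 largest positive (upper rows) and 20 largest negative (lower rows) interactions with at least 100 units in 1 group and no overlap of siSTAT3 and siNEG arrays under TAM or under EtOH. Columns are arrays in the order siSTAT3 TAM, siSTAT3 EtOH, siNEG TAM and siNEG EtOH. Rows were chosen by the interaction on these same arrays, so a contrast of the siNEG TAM columns follows in part from the choice.

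Other genes of this group span secreted, membrane and matrix proteins. CLEC2B, a lectin-like ligand of natural killer cell receptors, had 1290 and 1378 units with siSTAT3 TAM and 536, 435 and 494 units with siSTAT3 EtOH, against 24034, 25664 and 24106 units with siNEG TAM and 816, 597 and 702 units with siNEG EtOH. It rose with TAM in siSTAT3 cells too, by 1.45 (adjusted p = 3.68e-05), against 5.14 in siNEG cells. FGL1, a fibrinogen-like protein secreted by liver, averaged 152 ± 38 units with siSTAT3 TAM (n = 2) and 89.5 ± 13.4 units with siSTAT3 EtOH, against 3132 ± 453 units with siNEG TAM and 137 ± 24.2 units with siNEG EtOH (SD, n = 3 each). ENTPD3, which cleaves extracellular nucleotides, CHRNA9, a nicotinic acetylcholine receptor subunit, and F5, coagulation factor V, had interactions of -3.45, -3.49 and -3.44. The noncoding RNAs LINC00520 and KDM7A-DT had -4.34 and -3.45. C2CD4A, at 129 ± 14.6 units with siNEG TAM, had -5.17 (adjusted p = 0.0397), and it lost its call when any of 10 arrays was left out (adjusted p up to 0.21, without replicate 3 of siSTAT3 TAM).

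Acute-phase proteins, which liver and barrier epithelia secrete under interleukin 6, were called in 1 direction. The list of 16 measured genes also holds the transcription factors CEBPB and CEBPD, which are not secreted. Of the 16, 6 were called negative and none positive, against 2.49% and 3.42% of all genes. The list median was -0.44. SERPINA1, the elastase inhibitor alpha-1 antitrypsin, gave 1856 and 1507 units with siSTAT3 TAM and 1341, 1316 and 1143 units with siSTAT3 EtOH, against 19844, 19691 and 18336 units with siNEG TAM and 1812, 2606 and 1940 units with siNEG EtOH. The siNEG TAM arrays stood far above all others, and the interaction was -2.80 (SE 0.20, adjusted p = 3.02e-07). SERPINA3, alpha-1 antichymotrypsin, had -1.59 and LRG1, a leucine-rich serum glycoprotein, -1.85 (adjusted p = 0.0494). CEBPD had -0.50. CRP, the classic marker of inflammation, had 169, 144 and 155 units with siNEG TAM and a mean below 7 units in each of the other 3 groups, with an interaction of -5.42. HP, haptoglobin, had -3.26 (adjusted p = 0.0364), and its call was lost when any of 8 arrays was left out (without replicate 2 of siSTAT3 TAM, -2.29, adjusted p = 0.196). Leaving out 1 array at a time gave 4 to 7 negative calls in this list.

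Feedback inhibitors of cytokine signaling had 3 negative calls of 15 and no positive one, against 2.49% and 3.42% of all genes. SOCS3, which blocks JAK kinases at the interleukin 6 receptor, gave 242 and 112 units with siSTAT3 TAM and 127, 33.5 and 48.4 units with siSTAT3 EtOH, against 8070, 8494 and 7602 units with siNEG TAM and 446, 370 and 428 units with siNEG EtOH. The depleted cells were below siNEG cells with EtOH as well, with a difference of -2.81 (adjusted p = 0.000169). Its interaction was smaller than the difference between the TAM groups, at -2.80 (SE 0.51, adjusted p = 0.00316) against -5.61. In the fit of the 24 h arrays alone SOCS3 lost its call (adjusted p = 0.103). SOCS1 had -1.53 and the phosphatase PTPN2, which dephosphorylates JAK and STAT proteins, -0.85. SOCS1 also lost its call in that fit (adjusted p = 0.0642). With probe sets averaged, SOCS1 and PTPN2 had -0.82 and -0.44 and lost their calls (adjusted p = 0.306 and 0.246). Each of the 3 calls thus failed in at least 1 alternative. Both averages include probe sets under 100 units, and the 4 PTPN2 probe sets at 100 units had -0.89 to -0.67.

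Of 14 receptors and ligands of the interleukin 6 group, 2 were called. OSMR, the oncostatin M receptor, had -0.58 (not called with the 24 h arrays alone, adjusted p = 0.0626), and LIF, leukemia inhibitory factor, had 1.39. LIF gave 582 and 762 units with siSTAT3 TAM and 391, 380 and 318 units with siSTAT3 EtOH, against 106, 97.3 and 94.2 units with siNEG TAM and 148, 154 and 122 units with siNEG EtOH. It was higher in depleted cells under both treatments, and it rose with TAM by 0.88 in siSTAT3 cells and fell by 0.51 in siNEG cells (adjusted p = 0.0104 and 0.0376). IL6 itself was dim, at 99.5 and 124 units with siSTAT3 TAM and 107, 46.7 and 96.4 with siSTAT3 EtOH, against 180, 178 and 204 units with siNEG TAM and 194, 191 and 176 with siNEG EtOH, and its interaction of 0.50 (SE 0.41, adjusted p = 0.663) was not called.

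The interleukin 1 family was called on both sides. Of 21 measured genes of the interleukin 1 and 20 families, 6 had a negative and 5 a positive interaction, and 52.4% were called, against 5.91% of all genes. On the negative side stood IL33, an alarmin of barrier epithelia, and the receptor chains IL1R2, IL1RL1, IL1RAP, IL1R1 and IL18R1, with interactions of -5.86, -2.31, -2.30, -1.86, -1.10 and -1.05. On the positive side stood the ligands IL1A, IL1B, IL18 and IL36G and the receptor antagonist IL1RN, with 0.46, 1.40, 1.43, 1.97 and 2.52. IL33 gave 68.5 and 22.5 units with siSTAT3 TAM and 13.6, 27.5 and 21.6 units with siSTAT3 EtOH, against 1573, 1631 and 1913 units with siNEG TAM and 4.7, 31.7 and 22.7 units with siNEG EtOH. IL1R2, a decoy receptor that binds interleukin 1 without signaling, gave 150 and 115 units with siSTAT3 TAM and 137, 114 and 137 units with siSTAT3 EtOH, against 2896, 3150 and 2325 units with siNEG TAM and 527, 553 and 566 units with siNEG EtOH. Like SOCS3, it was lower in depleted cells with EtOH (-2.09, adjusted p = 2.41e-06). IL1RN ran the other way, at 1056 and 1169 units with siSTAT3 TAM and 836, 848 and 643 units with siSTAT3 EtOH, against 110, 169 and 139 units with siNEG TAM and 592, 756 and 355 units with siNEG EtOH. Its interaction was 2.52 (SE 0.33, adjusted p = 0.000155). Without replicate 3 of siSTAT3 TAM, this list had 6 negative and 3 positive calls.

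**Figure D3:**
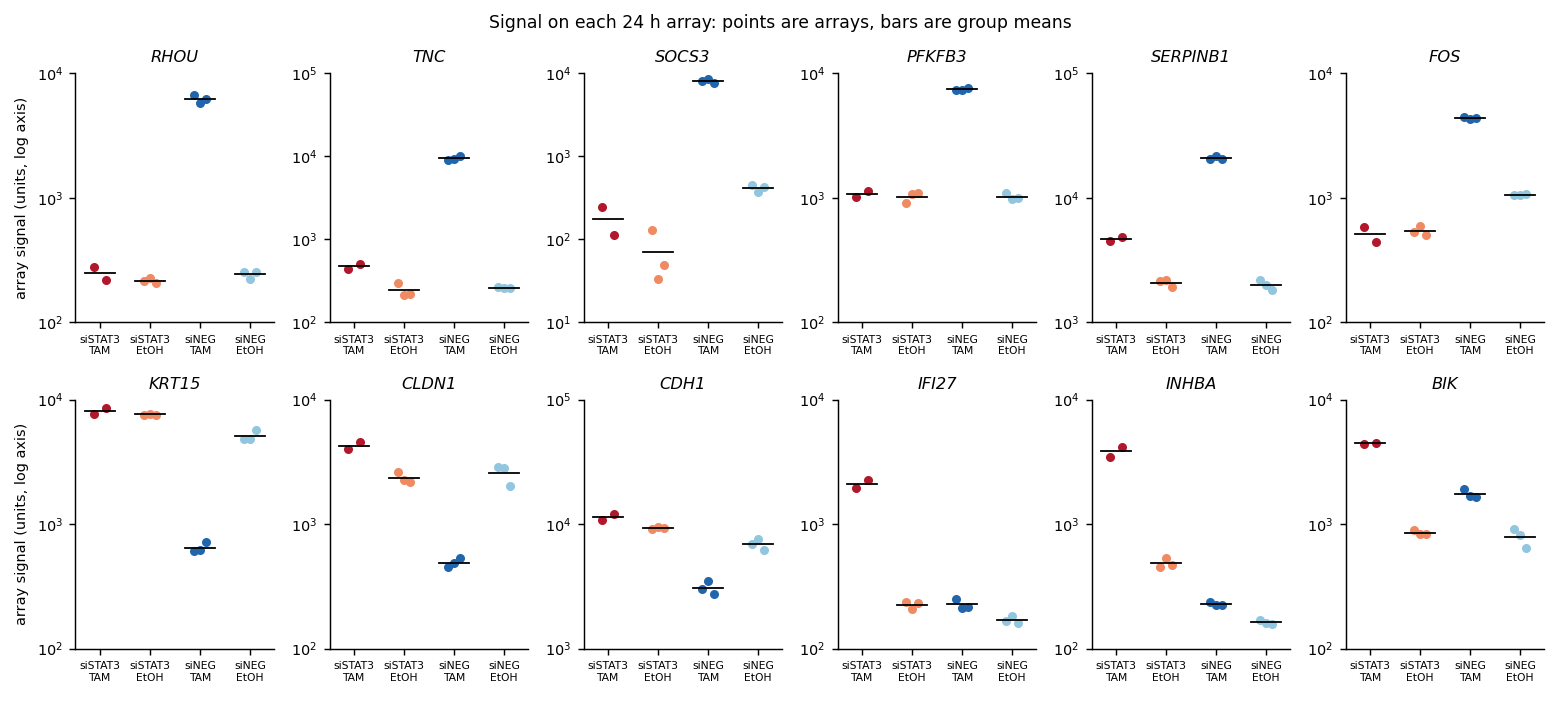
Signal of 12 genes on each of the 11 arrays at 24 h (points, log axis, MAS5 units), in the groups siSTAT3 TAM, siSTAT3 EtOH, siNEG TAM and siNEG EtOH, with the group mean as a bar. RHOU, TNC, SOCS3, PFKFB3, SERPINB1 and FOS have siNEG TAM as the high group, at 6248 units for RHOU against means of 216 to 248 units elsewhere. KRT15, CLDN1 and CDH1 have siNEG TAM as the low group, and IFI27, INHBA and BIK have siSTAT3 TAM as the high group.

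AP-1 factors, dimers of FOS, JUN and ATF proteins that act on growth and stress genes, were called in 6 of 16 cases. Over all genes the share was 5.91%. FOS gave 587 and 441 units with siSTAT3 TAM and 526, 598 and 505 units with siSTAT3 EtOH, against 4427, 4308 and 4378 units with siNEG TAM and 1057, 1054 and 1071 units with siNEG EtOH. The TAM effect was -0.09 in siSTAT3 cells and 2.04 in siNEG cells, with an interaction of -2.13 (SE 0.17, adjusted p = 6.13e-07). BATF3, which pairs with JUN proteins, had -2.69, the stress factor ATF3 -1.98 and FOSL2 -0.95. JUND had the opposite sign. It averaged 3788 ± 151 units with siSTAT3 TAM (n = 2) and 2952 ± 128 units with siSTAT3 EtOH, against 1397 ± 56.8 units with siNEG TAM and 2334 ± 63.4 units with siNEG EtOH (SD, n = 3 each), an interaction of 1.10 (SE 0.14, adjusted p = 0.000134). The other positive call was MAFF, at 0.57. With probe sets averaged, JUND and FOSL2 had 0.50 and -0.50 and were not called (adjusted p = 0.396 and 0.518). The list had 1 positive call without replicate 3 of siSTAT3 TAM. JUNB had -0.70 and was not called (adjusted p = 0.474).

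Other transcription factors with negative interactions included ETS2, BCL6 and KLF9. ETS2, which acts below Ras and ERK, gave 950 and 965 units with siSTAT3 TAM and 859, 735 and 673 units with siSTAT3 EtOH, against 6382, 7178 and 6908 units with siNEG TAM and 2684, 2393 and 2812 units with siNEG EtOH. It fell by 2.83 on depletion with TAM and by 1.80 with EtOH, and its interaction was -1.03. BCL6, a repressor known as a direct STAT3 target in lymphocytes, had 1635 and 1354 units with siSTAT3 TAM and 2341, 2269 and 2377 units with siSTAT3 EtOH, against 6133, 7045 and 7247 units with siNEG TAM and 2679, 3107 and 3645 units with siNEG EtOH. It had an interaction of -1.77 (SE 0.31, adjusted p = 0.00201). Among 23 ETS and Kruppel-like factors, 4 were negative, led by KLF9 at -2.41, and 3 positive, KLF4 at 1.89 and the epithelial factors EHF and ELF3 at 1.95 and 2.12. EHF had 1.12 with its probe sets averaged and was not called (adjusted p = 0.0863). NFKB1 and TSC22D3, the gene of the glucocorticoid-induced leucine zipper, had -0.38 and 0.28 and were not called (adjusted p = 0.319 and 0.568). BCL3 and TP63 were not analysed here. A list of 24 known STAT3 targets, which shares genes with these lists, had 7 negative and 3 positive calls, the positive ones being HSPB1, MUC1 and IRF1 with 1.45, 0.84 and 0.74.

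Genes of glycolysis and the hypoxia response were called in 8 of 26 cases, all negative, against 2.49% of all genes called negative. All 26 reached 100 units, and of all 11492 genes that did so 1126 were called in either direction. PFKFB3 makes fructose 2,6-bisphosphate, the allosteric activator of glycolysis. It gave 1010 and 1129 units with siSTAT3 TAM and 905, 1067 and 1090 units with siSTAT3 EtOH, against 7321, 7296 and 7612 units with siNEG TAM and 1093, 976 and 993 units with siNEG EtOH. The 8 arrays outside siNEG TAM lay between 905 and 1129 units. NDRG1, a hypoxia-induced gene, averaged 6606 ± 211 units with siSTAT3 TAM (n = 2) and 4124 ± 633 units with siSTAT3 EtOH, against 17546 ± 396 units with siNEG TAM and 2784 ± 755 units with siNEG EtOH (SD, n = 3 each). Its interaction was -2.01 (SE 0.24, adjusted p = 6.52e-05). EGLN3, an oxygen-sensing prolyl hydroxylase, had -2.95, the angiogenic factor VEGFA -1.24 and the glucose transporter SLC2A3 -1.24. The pyruvate dehydrogenase kinase PDK1 had -1.05 and the glycolytic enzyme ALDOC -0.52. BNIP3, a mitophagy receptor, had -0.56 and lost its call when any of 7 arrays was left out (without replicate 3 of siSTAT3 TAM, -0.55, adjusted p = 0.125). The list as a whole had a median of -0.16, and leaving out 1 array gave 5 to 7 calls. None of 24 respiratory chain subunits was called in limma's fit, and 3 of them were at an unadjusted p under 0.05. The largest value among them, that of COX7C, was 0.28 (adjusted p = 0.509).

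TNC had the largest interaction among the matrix genes. Tenascin C is a glycoprotein of healing wounds and tumor stroma. It gave 439 and 510 units with siSTAT3 TAM and 296, 215 and 219 units with siSTAT3 EtOH, against 9132, 9223 and 10168 units with siNEG TAM and 263, 256 and 260 units with siNEG EtOH. It rose with TAM in depleted cells too, by 0.97 (adjusted p = 0.00307), against 5.19 in siNEG cells, an interaction of -4.22 (SE 0.22, adjusted p = 1.38e-08). The cross-linking enzyme LOX, at -1.68, and LOXL2, at -0.81, were the other negative calls among 27 matrix genes. The 7 positive ones were THBS1, POSTN, COL8A1, FBLN1, SPARC, FN1 and COL1A1, from 1.45 to 0.51. Thrombospondin 1, the product of THBS1, averaged 11336 ± 259 units with siSTAT3 TAM (n = 2) and 8294 ± 825 with siSTAT3 EtOH, against 2587 ± 55.4 with siNEG TAM and 5164 ± 347 units with siNEG EtOH (SD, n = 3 each). Without replicate 3 of siSTAT3 TAM, the list had 4 positive calls. COL1A1 was not called when any of 8 arrays was left out (without replicate 3 of siSTAT3 TAM, 0.51, adjusted p = 0.115), and its value was -0.37 when all its probe sets were averaged. The summed signal of 10 fibroblast markers, among them POSTN, COL1A1 and DCN, was 8167 to 8352 units on the siSTAT3 TAM arrays and 4861 to 4951 on the siSTAT3 EtOH arrays, against 10162 to 11590 units with siNEG TAM and 7807 to 8146 with siNEG EtOH. Of these markers, 4 reached 100 units, while the defining COL1A2 and COL3A1 peaked at group means of 35.4 and 13.4 units.

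Proteases and their inhibitors lay on both sides. Of 22 metalloproteases and inhibitors, 4 were negative and 5 positive, against 2.49% and 3.42% of all genes. ADAM19, a membrane protease that sheds neuregulin, averaged 357 ± 43 units with siSTAT3 TAM (n = 2) and 141 ± 63.2 units with siSTAT3 EtOH, against 2963 ± 33.4 units with siNEG TAM and 70.7 ± 8 units with siNEG EtOH (SD, n = 3 each), an interaction of -3.96 (SE 0.44, adjusted p = 2.94e-05). ADAMTS9 and MMP3, stromelysin, had -3.24 and -2.70. On the positive side ADAMTS6, TIMP3 and MMP28 had 1.76, 1.36 and 1.18. Without replicate 3 of siSTAT3 TAM, the list had 5 negative and 2 positive calls. SERPINB1, which blocks neutrophil proteases inside cells, had 4509 and 4858 units with siSTAT3 TAM and 2150, 2175 and 1909 units with siSTAT3 EtOH, against 20444, 21518 and 20444 units with siNEG TAM and 2179, 2002 and 1804 units with siNEG EtOH. It rose in both backgrounds, by 1.17 in siSTAT3 cells and 3.39 in siNEG cells, and the difference between these effects was -2.21 (SE 0.13, adjusted p = 3.12e-08). SERPINE2, a thrombin and urokinase inhibitor, THBD, the thrombin receptor thrombomodulin, and CD55, which protects cells from complement, had -1.76, -1.84 and -1.45. The SERPINE2 call was lost when its probe sets were averaged (adjusted p = 0.0522). THBD gave 1393 and 1377 units with siSTAT3 TAM and 1438, 1347 and 1326 units with siSTAT3 EtOH, against 3842, 4037 and 4483 units with siNEG TAM and 1148, 1192 and 1063 units with siNEG EtOH.

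Genes that hold an epithelium together were called with positive interactions only. Of 17 tight junction genes 6 were called, of 18 desmosome and adherens junction genes 5, and of 14 keratins 4. Of 18 factors of epithelial fate and mesenchymal transition 5 were called. These lists had no negative call, and 3.42% of all genes were called positive. In KRT15, KRT8, CDH1, JUP and PPL, TAM lowered the gene in siNEG cells and was not called in siSTAT3 cells. KRT15, a keratin of basal and stem-like epithelial cells, gave 7615 and 8572 units with siSTAT3 TAM and 7535, 7669 and 7556 units with siSTAT3 EtOH, against 604, 623 and 715 units with siNEG TAM and 4820, 4789 and 5719 units with siNEG EtOH. The siNEG TAM arrays were far below all others, and the interaction was 3.07 (SE 0.18, adjusted p = 3.41e-08). KRT8, a keratin of simple epithelia, had 1.42 (SE 0.15, adjusted p = 1.8e-05). CDH1, E-cadherin of the adherens junction, gave 10789 and 11988 units with siSTAT3 TAM and 9199, 9457 and 9216 units with siSTAT3 EtOH, against 3006, 3503 and 2737 units with siNEG TAM and 6852, 7525 and 6205 units with siNEG EtOH. Its interaction was 1.45 (SE 0.13, adjusted p = 4.1e-06), and plakoglobin (JUP) and periplakin (PPL) had 1.17 and 1.67.

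CLDN1, a claudin that seals tight junctions, moved in opposite directions in the 2 backgrounds. It gave 4018 and 4522 units with siSTAT3 TAM and 2603, 2261 and 2165 units with siSTAT3 EtOH, against 454, 483 and 529 units with siNEG TAM and 2871, 2796 and 2008 units with siNEG EtOH. TAM raised it by 0.87 in depleted cells (adjusted p = 0.00183), and it fell by 2.37 in siNEG cells (adjusted p = 6.22e-10). The other claudins called were CLDN4 and CLDN7, at 2.99 and 1.35, beside OCLN at 1.72 and the junction scaffold CGN at 2.16. CLDN4 lost its call without replicate 3 of siSTAT3 TAM (2.87, adjusted p = 0.0628), and the tight junction list had 3 calls there. Among the factors, GRHL3, a regulator of epidermal barrier formation, averaged 880 ± 27.7 units with siSTAT3 TAM (n = 2) and 858 ± 58.9 units with siSTAT3 EtOH, against 99.4 ± 15.4 units with siNEG TAM and 688 ± 156 units with siNEG EtOH (SD, n = 3 each). SOX9 and OVOL1 had 2.58 and 2.02, and the mesenchymal factor SNAI2 0.54.

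Differentiation genes of stratified epithelium and luminal surface proteins were called on the same side. SPRR3 and SPRR1B, small proline-rich proteins of the cornified envelope, and the cross-linking enzyme TGM1 had 3.57, 1.83 and 1.29. They were the 3 calls among 20 epidermal genes, against 3.42% of all genes called positive. SPRR3 and TGM1 were not called with the 24 h arrays alone (adjusted p = 0.0517 and 0.0793), and SPRR3 had 2.11 with its probe sets averaged (adjusted p = 0.0927). SPRR2B, of the same family, gave 2218 and 2643 units with siSTAT3 TAM and 622, 660 and 456 units with siSTAT3 EtOH, against 84.7, 132 and 103 units with siNEG TAM and 225, 240 and 161 units with siNEG EtOH. MUC16, the membrane mucin that carries the CA125 antigen, had 266 and 276 units with siSTAT3 TAM and 200, 171 and 185 units with siSTAT3 EtOH, against 4.54, 3.21 and 6.19 units with siNEG TAM and 80.8, 96.8 and 61.4 units with siNEG EtOH. CD24, a surface glycoprotein used to sort mammary cells, averaged 26377 ± 5860 units with siSTAT3 TAM (n = 2) and 22506 ± 1055 with siSTAT3 EtOH, against 3977 ± 979 with siNEG TAM and 18244 ± 3036 units with siNEG EtOH (SD, n = 3 each), an interaction of 2.43 (SE 0.25, adjusted p = 1.12e-05). Of 13 luminal markers 4 were called positive (CD24, KRT8, MUC1 and EPCAM), and their summed signal was 63831 to 79873 units with siSTAT3 TAM and 61425 to 65848 with siSTAT3 EtOH, against 31505 to 36118 with siNEG TAM and 51480 to 61341 with siNEG EtOH. The part of these markers, and of the other cell type markers, in the results was not tested. The basal keratins KRT5 and KRT14, which mark this line, peaked at group means of 17564 and 19925 units and were not called. Of 9 measured basal markers, ACTA2 at -0.54 and EGFR at 0.48 were called (adjusted p = 0.0371 and 0.0328). Neither was called with the 24 h arrays alone (adjusted p = 0.234 and 0.162). The summed basal signal was 46576 to 50966 units with siSTAT3 TAM and 46992 to 47230 with siSTAT3 EtOH. In siNEG cells it was 53359 to 54336 units with TAM and 55087 to 57880 with EtOH. Of 8 immune markers 2 reached 100 units and none was called in limma's fit (0 at an unadjusted p under 0.05). Their summed signal was 794 to 900 units with siSTAT3 TAM and 870 to 876 with siSTAT3 EtOH, against 994 to 1038 with siNEG TAM and 1020 to 1251 with siNEG EtOH. Of 10 endothelial markers 3 reached 100 units, and PECAM1, with a highest group mean of 422 units, was called at 1.19. Their summed signal was 784 to 876 units with siSTAT3 TAM and 703 to 955 with siSTAT3 EtOH, against 821 to 1007 with siNEG TAM and 817 to 1024 with siNEG EtOH. The defining PTPRC, VWF and CDH5 peaked at group means of 38.2, 18.3 and 12.1 units.

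**Figure D4:**
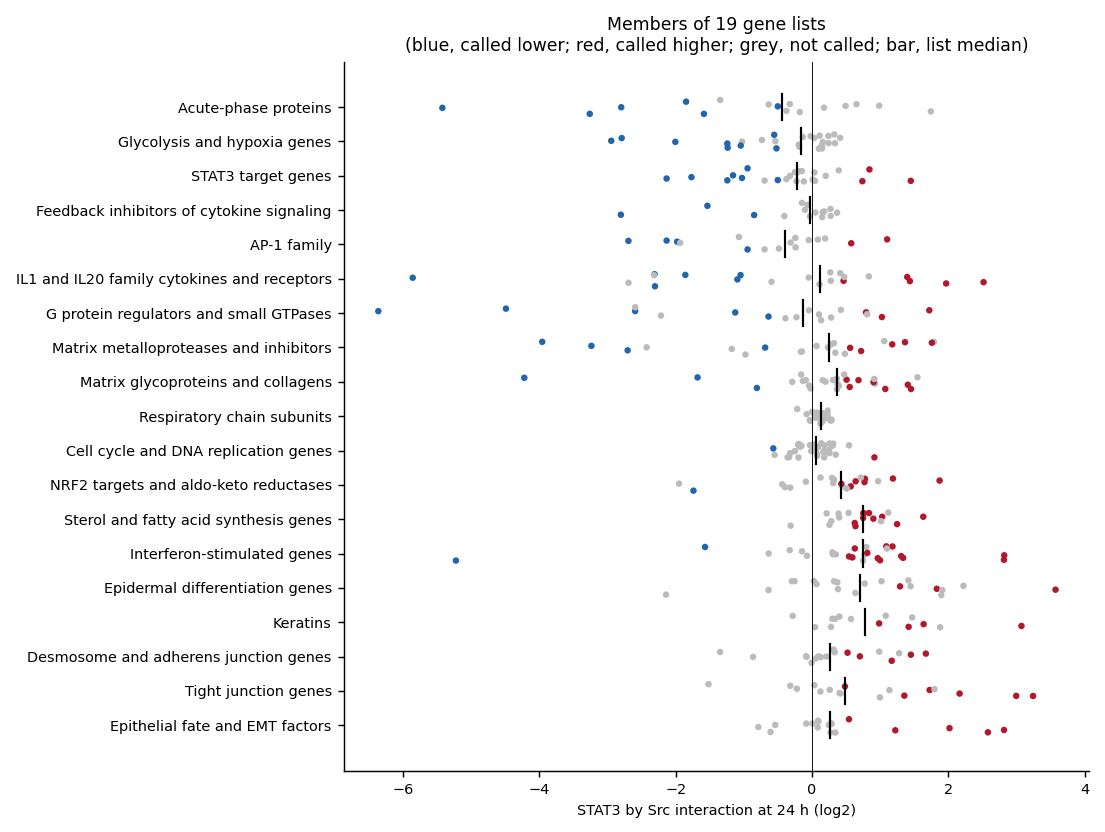
Interaction at 24 h (horizontal axis, log2) of each measured member of 19 gene lists, 1 row a list. Blue points were called lower, red points higher and grey points neither, and the black bar is the list median, which runs from -0.44 for acute-phase proteins to 0.78 for keratins.

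Interferon-stimulated genes were called in 14 of 25 cases (56.0%, against 5.91% of all genes). Of these, 12 were positive and 2 negative, and the list median was 0.75. IFIT1, which binds foreign RNA, gave 702 and 839 units with siSTAT3 TAM and 289, 315 and 262 units with siSTAT3 EtOH, against 30.6, 97.4 and 56.1 units with siNEG TAM and 118, 168 and 156 units with siNEG EtOH. TAM raised it by 1.41 in depleted cells (adjusted p = 0.0276), and it fell by 1.40 in siNEG cells (adjusted p = 0.00264). IFI27, a small protein strongly induced by interferon, had 1963 and 2261 units with siSTAT3 TAM and 236, 207 and 233 units with siSTAT3 EtOH, against 251, 211 and 217 units with siNEG TAM and 167, 182 and 162 units with siNEG EtOH. It was high on the siSTAT3 TAM arrays alone, with an interaction of 2.81 (SE 0.26, adjusted p = 3.26e-06). The other positive calls were IFI6, IFI44, IFIT2, ISG15, OAS1, IFIT3, PSMB9, IFIH1, OAS3 and IFI44L, from 1.34 to 0.54. MX1, a dynamin-like antiviral GTPase, went against the rest, at 13.1 and 5.79 units with siSTAT3 TAM and 17.6, 8.61 and 20.3 units with siSTAT3 EtOH, against 281, 296 and 275 units with siNEG TAM and 26.2, 4.84 and 16 units with siNEG EtOH, an interaction of -5.22 (SE 1.10, adjusted p = 0.00958). Without replicate 3 of siSTAT3 TAM its value was -4.63 (adjusted p = 0.0755). ISG20, an exonuclease, had -1.57. The number of positive calls in this list was 7 without replicate 3 and 5 without replicate 2 of siSTAT3 TAM. The interferon-inducible chemokine CXCL11 averaged 490 ± 8.96 units with siSTAT3 TAM (n = 2) and 293 ± 38.8 units with siSTAT3 EtOH, against 30.6 ± 9.08 units with siNEG TAM and 118 ± 47.6 units with siNEG EtOH (SD, n = 3 each), an interaction of 2.67 (SE 0.34, adjusted p = 0.000102).

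A smaller group rose with TAM more strongly when STAT3 was depleted. INHBA, which encodes a subunit of activin A, gave 3475 and 4188 units with siSTAT3 TAM and 454, 532 and 471 units with siSTAT3 EtOH, against 237, 224 and 222 units with siNEG TAM and 170, 159 and 158 units with siNEG EtOH. TAM raised it in both backgrounds, by 2.98 in siSTAT3 cells and 0.49 in siNEG cells, and the interaction was 2.49 (SE 0.14, adjusted p = 2.03e-08). BIK, a BCL2-family protein that promotes cell death, had 4378 and 4517 units with siSTAT3 TAM and 888, 831 and 833 units with siSTAT3 EtOH, against 1908, 1689 and 1634 units with siNEG TAM and 910, 811 and 639 units with siNEG EtOH. It rose by 2.39 with TAM in siSTAT3 cells and by 1.16 in siNEG cells. IGFBP3, which binds insulin-like growth factors, gave 5005 and 5318 units with siSTAT3 TAM and 1335, 1215 and 917 units with siSTAT3 EtOH, against 226, 200 and 225 units with siNEG TAM and 559, 478 and 316 units with siNEG EtOH. Its TAM effects were opposite, 2.18 in siSTAT3 cells and -1.02 in siNEG cells (adjusted p = 7.36e-06 and 0.000511).

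POSTN, TNFAIP3 and PLAU also rose with TAM in both backgrounds. POSTN, a matrix protein of wounds, had TAM effects of 2.47 in siSTAT3 cells and 1.06 in siNEG cells. TNFAIP3, an inhibitor of NF-kB signaling, had 1.81 in siSTAT3 cells and 0.94 in siNEG cells. It was 1 of 3 positive calls among 18 NF-kB subunits and inhibitors, beside the kinase MAP3K14 at 1.64 and the deubiquitinase CYLD at 0.83. CYLD was not called without replicate 3 of siSTAT3 TAM (0.75, adjusted p = 0.0747). PLAU, urokinase, had 2.27 in siSTAT3 cells and 1.32 in siNEG cells, and its interaction of 0.95 also lost its call without that array (0.76, adjusted p = 0.0734). POSTN lost its call when all its probe sets were averaged (adjusted p = 0.12).

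Enzymes of sterol and fatty acid synthesis had 10 positive calls of 19 measured (52.6%, against 3.42% of all genes). They had no negative call, and their median was 0.75. All 19 reached 100 units, and of all 11492 genes that did so 1126 were called in either direction. LSS, which closes the sterol ring, averaged 3250 ± 524 units with siSTAT3 TAM (n = 2) and 2215 ± 84.8 units with siSTAT3 EtOH, against 1067 ± 69.3 units with siNEG TAM and 2276 ± 288 units with siNEG EtOH (SD, n = 3 each). Its interaction was 1.63 (SE 0.18, adjusted p = 2.69e-05). HMGCS1, an early enzyme of the pathway, gave 5008 and 5238 units with siSTAT3 TAM and 3191, 3014 and 2760 units with siSTAT3 EtOH, against 1854, 1834 and 1939 units with siNEG TAM and 2729, 2510 and 2544 units with siNEG EtOH. It rose by 0.78 with TAM in siSTAT3 cells and fell by 0.47 in siNEG cells. DHCR7, SCD, ELOVL6, ACLY, IDI1, INSIG1, FDPS and SQLE followed with 1.03 to 0.63. Leaving out 1 array at a time gave 8 to 10 calls in this list.

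Of 21 NRF2 targets and aldo-keto reductases, which serve antioxidant defense, 7 had a positive and 1 a negative call. Over all genes the shares were 3.42% and 2.49%. ALDH1A3, which makes retinoic acid, gave 8247 and 9752 units with siSTAT3 TAM and 7249, 6694 and 5789 units with siSTAT3 EtOH, against 888, 1180 and 973 units with siNEG TAM and 3230, 3092 and 1943 units with siNEG EtOH. Its interaction was 1.87 (SE 0.24, adjusted p = 0.000147). The average with its other probe set, which peaked at 17.6 units, was -0.34 (adjusted p = 0.896). ALDH3A1 fell in both backgrounds, with TAM effects of -1.65 in siSTAT3 cells and -2.84 in siNEG cells. SLC7A5 and SLC3A2, the chains of a transporter for large neutral amino acids, had 1.16 and 0.86. They were 2 of 3 positive calls, beside 1 negative one, among 21 ER stress and ATF4 genes, a list with a median of 0.10. SLC7A5 gave 13093 and 14655 units with siSTAT3 TAM and 13966, 14486 and 14622 units with siSTAT3 EtOH, against 6151, 6234 and 5653 units with siNEG TAM and 13795, 14670 and 13321 units with siNEG EtOH. Genes of the cell cycle and DNA replication had 2 calls of 34 (5.88%), MKI67 at -0.57 and E2F2 at 0.91. Over all genes 5.91% were called. All 34 reached 100 units, and of all 11492 genes that did so 1126 were called. E2F2 was not called with its probe sets averaged (adjusted p = 0.349), and MKI67 was not called without replicate 3 of siSTAT3 TAM (-0.48, adjusted p = 0.0865).

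The interaction at 24 h was set against that at 4 h, which was measured on 12 other arrays. At 4 h it was called in 103 genes (0.521%), 65 negative and 38 positive. Of those, 80 were also called at 24 h, which is 77.7% of the 4 h calls and 6.84% of the 24 h calls, and 78 of the 80 had the same sign. The difference between the times, tested in the same fit, was called in 274 genes (1.39%), 131 with a lower and 143 with a higher value at 24 h, and 263 of them were called at 24 h.

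**Figure D5:**
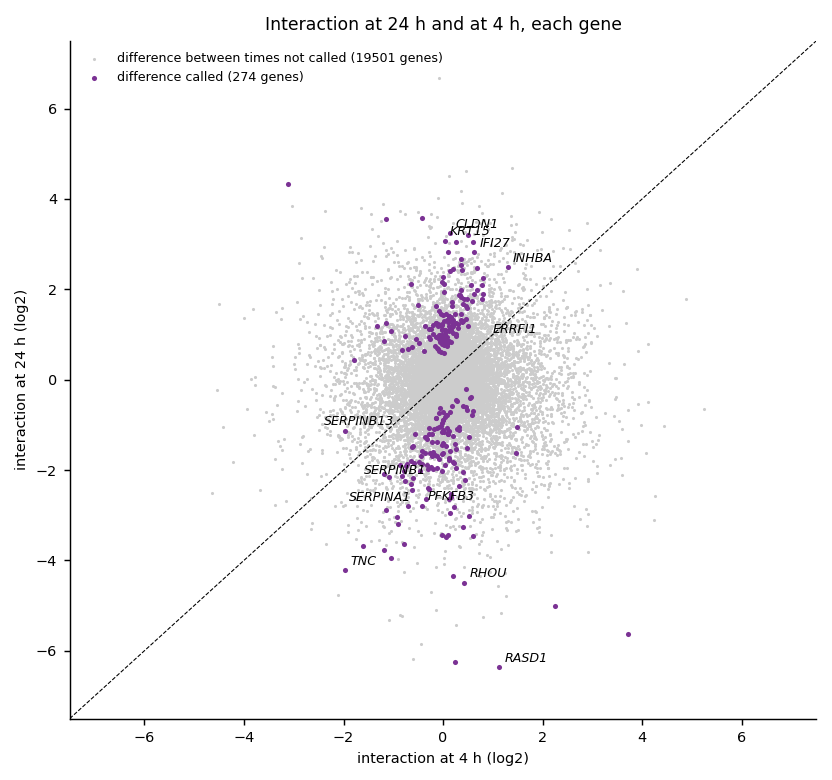
Interaction at 24 h (vertical axis, log2) against that at 4 h (horizontal axis, log2) for 19775 genes, with the line of equal values dashed. Purple points are the 274 genes whose interaction differed between the times, most of them stretched along the vertical axis, and SERPINB1, SERPINA1 and ERRFI1 lie near the dashed line.

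The named genes differed in their values at 4 h. KRT15, CLDN1, RHOU, PFKFB3 and THBD had values at 4 h of 0.03, 0.14, 0.42, -0.42 and 0.23, none of them called. Their 24 h values differed from these by 3.04, 3.10, -4.91, -2.37 and -2.07 (adjusted p of 1.46e-05, 1.43e-05, 4.43e-06, 7.47e-06 and 7.47e-06). SERPINA1, SERPINB1, FOS, ETS2 and BCL6 were called at both times, with -2.01, -1.70, -1.14, -0.86 and -1.44 at 4 h, and the difference between the times was not called in them (adjusted p of 0.289, 0.28, 0.0541, 0.878 and 0.844). TNC, CLEC2B and INHBA were called at both times and larger at 24 h, with -1.98, -1.60 and 1.30 at 4 h. Among the genes named here, SERPINB13, a keratinocyte serpin, had a larger value at 4 h, -2.50 against -1.12 at 24 h, and the difference was not called (adjusted p = 0.124). Its 24 h call was lost when any of 7 arrays was left out (without replicate 3 of siSTAT3 TAM, -1.11, adjusted p = 0.101).

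The promoters of the called genes were searched for the STAT palindrome TTCNNNGAA, a description of sequence and not of binding. RefSeq (GRCh38.p14) gave promoters, 250 bases before to 50 after each start, for 399 of the 493 negative genes and 540 of the 676 positive ones, some with several starts. The palindrome reads the same on both strands, and it occurred in 53 of 642 promoters of negative genes (8.26%), 52 of 866 promoters of positive genes (6.00%), 1462 of 21490 promoters of all genes tested (6.80%) and 2689 of 35116 promoters in all (7.66%). The stricter TTCCNGGAA, which is contained in it, occurred in 1.87%, 1.04%, 1.16% and 1.15%, in the same order. TTCCNNGAA on either strand, which contains the strict form, occurred in 5.61%, 3.70%, 4.26% and 4.45%.

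Of 144 genes named by rule, 116 had a promoter. Stretches from 5 of them that hold the palindrome upstream of the start are shown as examples, from both sides of the interaction. Others with a match there included MX1, with a negative interaction, and CXCL11, ID3, SLC3A2 and THBS1, with positive ones. The match is in capitals, and each stretch reads 5′ to 3′ on the strand of the gene.
BCL6 (chr3:187745474-187745556, minus strand, match 28 bases before the start): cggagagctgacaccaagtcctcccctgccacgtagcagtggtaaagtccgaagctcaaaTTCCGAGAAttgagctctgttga
SERPINB1 (chr6:2842041-2842113, minus strand, match 208 bases before the start): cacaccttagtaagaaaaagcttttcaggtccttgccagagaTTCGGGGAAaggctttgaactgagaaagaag
PAEP (chr9:135561612-135561702, plus strand, match 84 bases before the start): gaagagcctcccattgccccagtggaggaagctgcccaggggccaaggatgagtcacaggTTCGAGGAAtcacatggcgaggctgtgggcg
IFI27 (chr14:94110575-94110665, plus strand, match 101 bases before the start): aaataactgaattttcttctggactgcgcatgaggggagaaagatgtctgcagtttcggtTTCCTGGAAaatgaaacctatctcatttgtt
POSTN (chr13:37598830-37598920, minus strand, match 92 bases before the start): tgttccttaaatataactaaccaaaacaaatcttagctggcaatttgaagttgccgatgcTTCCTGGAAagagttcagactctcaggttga
BCL6 and SERPINB1 are described above with negative interactions, and PAEP, which encodes the secreted lipocalin glycodelin, had -6.17, with 184, 132 and 175 units on the siNEG TAM arrays and a mean below 6 units in the other groups. The BCL6 promoter held 4 matches in all. IFI27 and POSTN, with positive interactions, hold the strict form TTCCTGGAA, so the letters were present on both sides.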

How the data were processed

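RNA was hybridized to Affymetrix HG-U133 Plus 2.0 arrays. The authors summarized each probe set with MAS5, and the deposited intensity values are on a linear scale, 1 column an array. The log2 of each value was taken with nothing added. limma 3.58.1 in R 4.3.3 fitted 1 mean per group over all 23 arrays, including those at 4 h, with 15 residual degrees of freedom, and the interaction was a contrast of 4 group means. P-values were adjusted by Benjamini-Hochberg over 54675 probe sets, and an adjusted p under 0.05 was a call. A single gene symbol was held by 41097 probe sets, several by 1801 and none by 11777. A gene was represented by its probe set of highest mean log2 signal.

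Named genes were STAT3 and those the study named for RNA, the 20 largest called interactions in each direction with at least 100 units in 1 group and no overlap of siSTAT3 and siNEG arrays under TAM or under EtOH, and the 3 largest called members at 100 units of each of 43 lists (where none was called, the largest member). Genes of the text outside this rule are other called list members, chosen after their values were seen. A gene of the rule and a list are not reported here. The members and lists were chosen with earlier results of these data known. Alternatives were the 24 h arrays alone, pseudocounts of 16 and 64, a filter at 100 units, quantile normalization and median centring, a variance trend with robust fitting, a replicate block, the mean of a gene's probe sets, the limit in the methods, and leaving out each array. The fit was tested on simulated data with normal noise, where interactions were placed in probe sets at 100 units or more. Of 100 interactions of 2-fold, 42 were called with the right sign, and of 100 of 4-fold, 89. A gene that was not called may thus still have an interaction of 2-fold. The number of arrays limits the precision.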

Additional observations from a re-analysis of the deposited data

Results flagged for a closer look

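In 55 of the genes named by rule the interaction at 24 h differed from that at 4 h in limma's fit of all arrays. The values below are the 24 h interaction minus the 4 h interaction, on the log2 scale, and no explanation of them was tested.

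Each of the following genes was chosen because it passed, so nothing is said of the groups they belong to. Among genes with a negative difference, the G protein genes RASD1, RHOU and RGS16 had -7.49, -4.91 and -2.75. Secreted and surface proteins with a negative difference were GZMB at -6.49, ENTPD3 at -4.06, CHRNA9 at -3.55, F5 at -3.41, FGL1 at -2.59 and CLEC2B at -2.08. Further ones were THBD at -2.07, VLDLR at -2.02, IL1R2 at -1.67, CD55 at -1.44 and the inhibitor SERPINE2 at -1.69. Of matrix genes and proteases, ADAM19 had -2.92, TNC -2.24 and LOX -1.46. The hypoxia and glycolysis genes EGLN3 and PFKFB3 had -3.09 and -2.37. The regulators KLF9, ATF3 and DUSP6 had -2.14, -1.67 and -1.14. The noncoding RNAs LINC00520 and KDM7A-DT had -4.54 and -3.55, and CTSLP8, a cathepsin pseudogene whose probes may also read related transcripts, had -2.87.

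Among genes with a positive difference, the keratins KRT15 and KRT8 had 3.04 and 1.30, the tight junction genes CLDN1 and CGN 3.10 and 2.19, and the adherens and desmosome genes CDH1, JUP and PPL 1.22, 1.04 and 1.27. The cornified envelope genes SPRR3 and SPRR2B had 4.00 and 2.44. The epithelial factors GRHL3, ELF3 and EHF had 2.71, 2.76 and 1.94, the receptor kinase EPHB3 2.79 and the glycoprotein CD24 2.05.

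Interferon and immune genes with a positive difference were IFI27 at 2.19, CXCL11 at 2.30, CXCL16 at 1.30, C3 at 0.77 and CORO1A at 2.18. CXCL16 was not called at 24 h in some fits that left out 1 array. Secreted regulators were IGFBP3 at 2.69, DKK1 at 1.31, INHBA at 1.19, THBS1 at 1.39 and POSTN at 1.28. Metabolic genes were LSS at 1.77, HMGCS1 at 0.98, ALDH1A3 at 1.56, SLC7A5 at 0.99 and SLC3A2 at 0.74, and the small heat shock protein HSPB1 had 1.08.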

How the results depend on the processing

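At the limit in the methods 259 negative and 310 positive genes and 167 differences between the times were counted, against 493, 676 and 274 in the fit reported. The 24 h arrays alone gave 308 and 335. The filter at 100 units gave 1050 positive genes and 536 differences, over fewer probe sets. Differences between the times numbered 435 with a pseudocount of 64 and 487 with a variance trend and robust fitting. Leaving out 1 array gave 354 to 463 negative genes, 406 to 655 positive genes and 152 to 286 differences, with the lowest of each without replicate 3 of siSTAT3 TAM, which leaves that group 1 array assumed to vary like the others. Averaging all probe sets of a gene turned the sign of ALDH1A3 (-0.34), COL1A1 (-0.37), ERBB3 (-0.12) and TSC22D3 (-0.042). The average gives probe sets under 100 units the same weight as brighter ones. Apart from these averages no named gene changed sign. Of 137 called named genes, 111 were called in every fit that left out 1 array, and 92 of all 144 had the same direction and the same side of the threshold in every alternative. The cause of these changes was not tested.

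With the replicate number as a block, 466 negative genes, 632 positive genes and 247 differences were called. Among the named genes the block ended the calls of ACTA2, C2CD4A, EGFR, HP, NR1D2 and STAT4 (adjusted p of 0.0516 to 0.0762) and no other. At 24 h the deviations of same-numbered arrays had a median r of 0.0225 over 15 pairs, 2 of them above 0.1, against -0.0013 over 30 pairs of different number. Over all arrays the median was 0.0375 with 18 of 77 pairs above 0.1, against -0.0238 with 17 of 154. The number was taken as a pairing only if every same-numbered pair was above 0.1, so the fit reported does not use it. A weaker pairing could fail that rule. Whether arrays of the same number were handled together was not tested.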

Other observations

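Signaling genes outside the lists above were divided. Of 20 ERK feedback and immediate early genes, 3 were negative and 3 positive, and the positive calls numbered 1 without replicate 2 or without replicate 3 of siSTAT3 TAM, and without replicate 2 of siNEG EtOH. DUSP6, the phosphatase that switches off ERK, gave 5322 and 5029 units with siSTAT3 TAM and 4760, 4662 and 5358 units with siSTAT3 EtOH, against 11092, 10334 and 12598 units with siNEG TAM and 4550, 5100 and 5795 units with siNEG EtOH. Its interaction was -1.07 (SE 0.18, adjusted p = 0.00124), that of the ERK inhibitor SPRED1 -1.34, and that of the stress kinase phosphatase DUSP10 1.03. Among 13 EGF-family ligands and ERBB receptors, TGFA had -0.86 (not called with probe sets averaged, adjusted p = 0.0888) and ERRFI1, which inhibits the EGF receptor, 0.90. Of 24 TGF-beta, activin and BMP genes 4 were negative, with TGFB3 at -1.95, and 2 positive, INHBA and the BMP target ID3, at 1.41. Leaving out 1 array gave 1 to 4 negative calls in this list, with 1 left without replicate 2 of siSTAT3 TAM, and 2 to 4 positive ones. TGFB3 had -1.27 with its probe sets averaged and was not called (adjusted p = 0.506). DKK1, a secreted Wnt inhibitor, gave 11310 and 12833 units with siSTAT3 TAM and 10098, 9882 and 9785 units with siSTAT3 EtOH, against 1930, 2095 and 1709 units with siNEG TAM and 7133, 6887 and 6177 units with siNEG EtOH, an interaction of 2.10 (SE 0.13, adjusted p = 7.06e-08). It was 1 of 2 positive and 3 negative calls among 26 Notch and Wnt genes. Of these, JAG1, a Notch ligand, had -0.90 and the Notch target HES1 -0.98. The 2 HES1 probe sets at 100 units had -0.98 and -0.69, and another peaked at 4.98 units. This list had 1 positive call without replicate 3 of siSTAT3 TAM, and HES1 was not called with its probe sets averaged (-0.53, adjusted p = 0.199).

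Hormone and clock genes were called on both sides as well. Of 19 glucocorticoid-responsive genes, 3 were negative, led by KLF9 at -2.41, and 4 positive, led by ZBTB16 at 1.07. The clock genes BMAL2 and BMAL1 had -1.16 and 0.74, but no clock gene had a positive call without replicate 1 of siSTAT3 EtOH or without replicate 2 of siNEG EtOH. BMAL2, which pairs with CLOCK, gave 1021 and 1112 units with siSTAT3 TAM and 580, 464 and 554 units with siSTAT3 EtOH, against 2469, 2479 and 2427 units with siNEG TAM and 634, 490 and 533 units with siNEG EtOH. Among 17 BCL2-family genes the killer proteins BCL2L11 and BIK had -0.82 and 1.23.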
